A study of Mus musculus with 12 samples.

Results

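Collagens other than type IV are the genes described here in mouse embryonic stem (ES) cell cultures measured on arrays. They are the genes whose name on the array has the form of a collagen chain (Col, a type number, a and a chain number), with the type IV chains left out. Of the 27720 genes on the array 34 had such a name, and 31 of these were among the 21354 genes kept, which had a probe well above background on at least 2 of the 12 arrays. The remaining 3 were Col10a1 and Col15a1, above background on no array, and Col28a1, above background on 1. Of the 31 kept genes 24 lay well above background on all 12 arrays.

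The series measured total RNA of ES cells on one-colour arrays, with 1 array for each combination of line, medium and day. Both lines carry a green fluorescent protein (GFP) reporter named after a germ cell gene, Stella-GFP and Dazl-GFP, and each is a single line. Feeder cells, which were γ-irradiated embryonic fibroblasts (MEFs), and the cytokine LIF were present in the culture. One arm had DMEM with 15% FBS (fetal bovine serum), the other B27N2 medium free of serum, and RNA was taken at days 0, 3 and 10. The serum-free arm carries the name 2i condition in the labels. For 2i, the labels give 1 µM of the MEK inhibitor PD0325901 and 5 µM of the GSK3β inhibitor Kenpaullone. Whether cells in FBS were given them, and what serum-free cells of day 0 had been given, is not stated there. Each of the 6 groups (FBS and serum-free at 3 days) thus holds 2 arrays, 1 per line, so a p-value reflects the spread of these arrays alone.

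A collagen is a protein of 3 chains wound into a triple helix. Fibrillar collagens (types I, II, III, V, XI, XXIV and XXVII) assemble into the cable-like fibrils that fibroblasts and cartilage cells lay down. FACIT collagens (fibril-associated collagens with interrupted triple helices) sit on the surface of such fibrils, type VI forms beaded filaments, and type VII anchors epithelium to the tissue beneath it. Type VIII forms sheet-like networks, type XVIII is a basement membrane collagen that carries heparan sulfate, and the transmembrane collagens XIII, XVII, XXIII and XXV span the cell membrane. Fibroblasts are a main source of fibrillar collagen, and the feeder cells of these cultures are fibroblasts. In RNA from whole cultures, fewer cells of a type and less RNA per cell cannot be told apart.

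On the 12 arrays 64% to 74.4% of spots lay well above background, with a 75th percentile between 454 and 947 intensity units. The FBS arrays of day 3 had the lowest percentiles, 454 for Stella-GFP and 562 for Dazl-GFP. The serum-free arrays of day 3 had 696 and 874. FBS Stella-GFP at day 3 also had the smallest share of spots above background, 64%. No spot of a collagen gene was irregular or saturated. A value below is a relative signal, where 1 is the 75th percentile of the array, and it compares a gene with itself across arrays, not with other genes. Values of a group are given for Stella-GFP first and Dazl-GFP second. All 10 ES cell markers, among them Pou5f1, Nanog and Zfp42, lay well above background on all 12 arrays, with a summed relative signal of 387 to 683. Of 16 fibroblast markers 15 did so too, and Fap did on 1 array. The arrays lay on 3 slides. All FBS Dazl-GFP arrays shared slide 1 with the day 0 array of Stella-GFP in FBS. Slide 2 carried days 3 and 10 of Stella-GFP in FBS together with days 0 and 3 of serum-free Dazl-GFP, and the other 4 serum-free arrays were on slide 3.

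**Figure D1:**
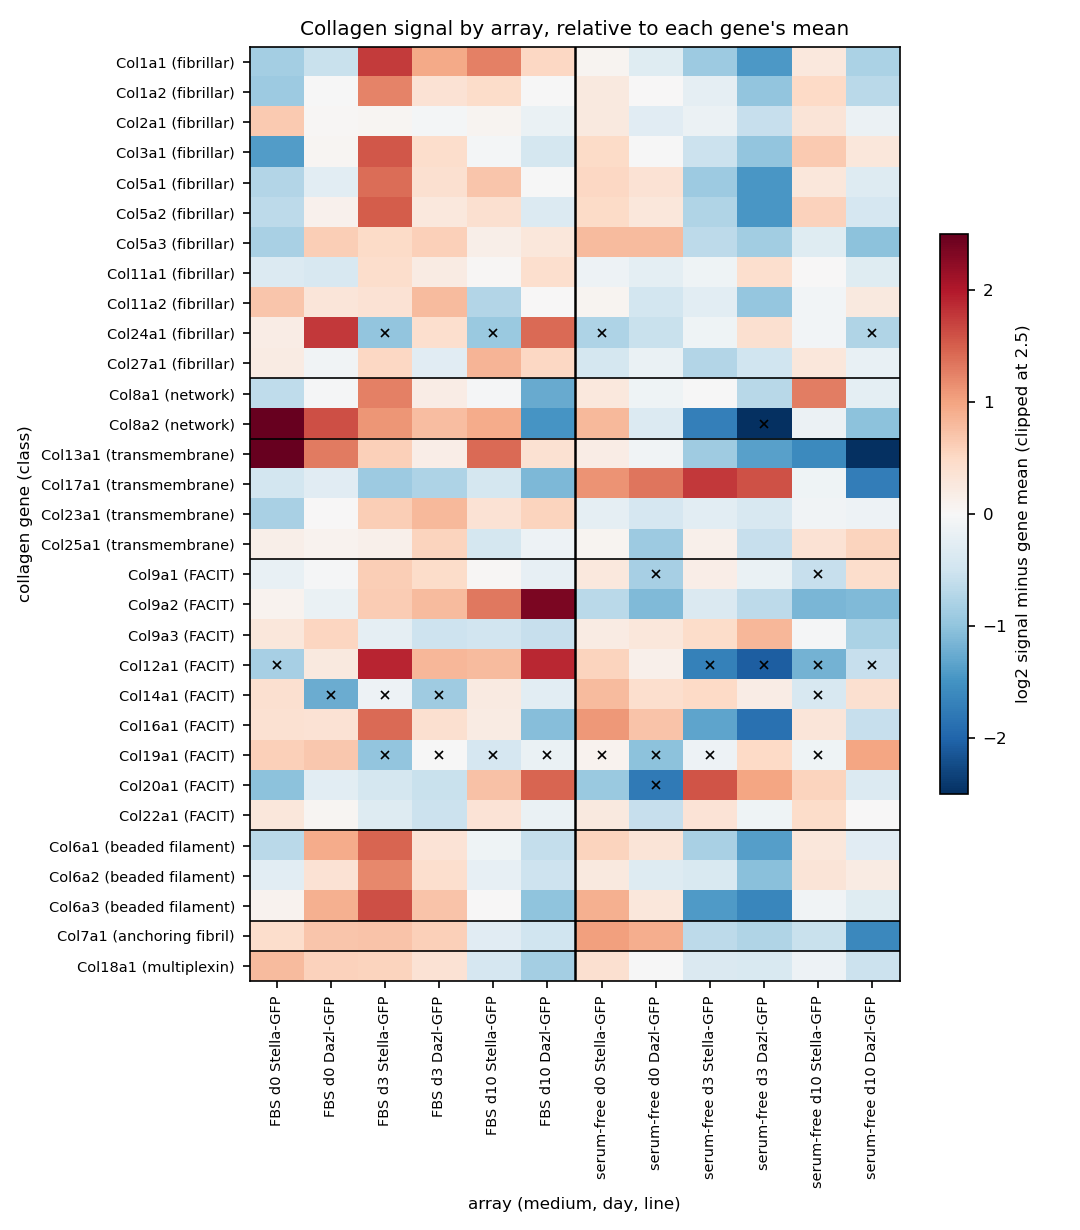
Log2 signal of the 31 collagens (rows, by class) on the 12 arrays (columns), minus the mean of the gene over all arrays; red is above and blue below that mean, a cross marks a probe not well above background, and the vertical line parts the FBS from the serum-free arm. FBS Stella-GFP at day 3 was the highest array for 12 of the 31 genes, and serum-free Dazl-GFP at day 3 was the lowest for 12.

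At day 3 the collagens of the serum-free arm stood below those of the FBS arm in most classes. Of 31 genes 15 were lower and 3 higher at an adjusted p under 0.05 (limma, Benjamini-Hochberg over all 21354 genes), against 13.6% of all genes lower and 8.99% higher, 22.6% in all. The median log2 difference of the collagens was -1.19, and that of all genes was -0.21. Both lines gave the same sign for 28 of all 31 genes, and the share over all genes was not counted. The 18 genes called were among the 28, which adds no support, since a call already favours lines that agree. Among the 24 collagens above background on all 12 arrays, 13 were lower and 2 higher. The shares over all genes given here include dimmer genes, and no share is given for all genes above background on all 12 arrays. By class, 4 of 11 fibrillar, 1 of 2 network, 2 of 4 transmembrane, 3 of 9 FACIT and all 3 beaded filament chains were lower, with the single multiplexin and the single anchoring fibril gene. The 3 higher genes were the transmembrane Col17a1 and the FACIT genes Col20a1 and Col9a3.

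The count rested on each of the 4 day 3 arrays, of which slide 2 held 2. It was 7 without the FBS Stella-GFP array, 7 without FBS Dazl-GFP, 6 without serum-free Stella-GFP and 4 without serum-free Dazl-GFP, and Col1a1, Col16a1, Col6a3 and Col8a2 remained called when any 1 of the 12 arrays was left out. With the slide as a block 7 genes were called, all lower: Col1a1, Col5a1, Col8a2, Col12a1, Col16a1, Col6a2 and Col6a3. Within slide 2, where serum-free Dazl-GFP can be set against FBS Stella-GFP, the median difference of the collagens was -1.32 and that of all genes -0.21. That is 1 array against 1 array, and the pair differs in line as well as in medium. Line and medium thus cannot be told apart there, nor in the slide 2 values of single genes below. Another probe of the same gene, where there was one above background, did not pass for Col13a1 (-1.57, adjusted p = 0.191 with every probe tested separately), Col18a1 (-0.51, adjusted p = 0.11), Col23a1 (-0.13, adjusted p = 0.818) and Col6a2 (-2.14, adjusted p = 0.0585).

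**Figure D2:**
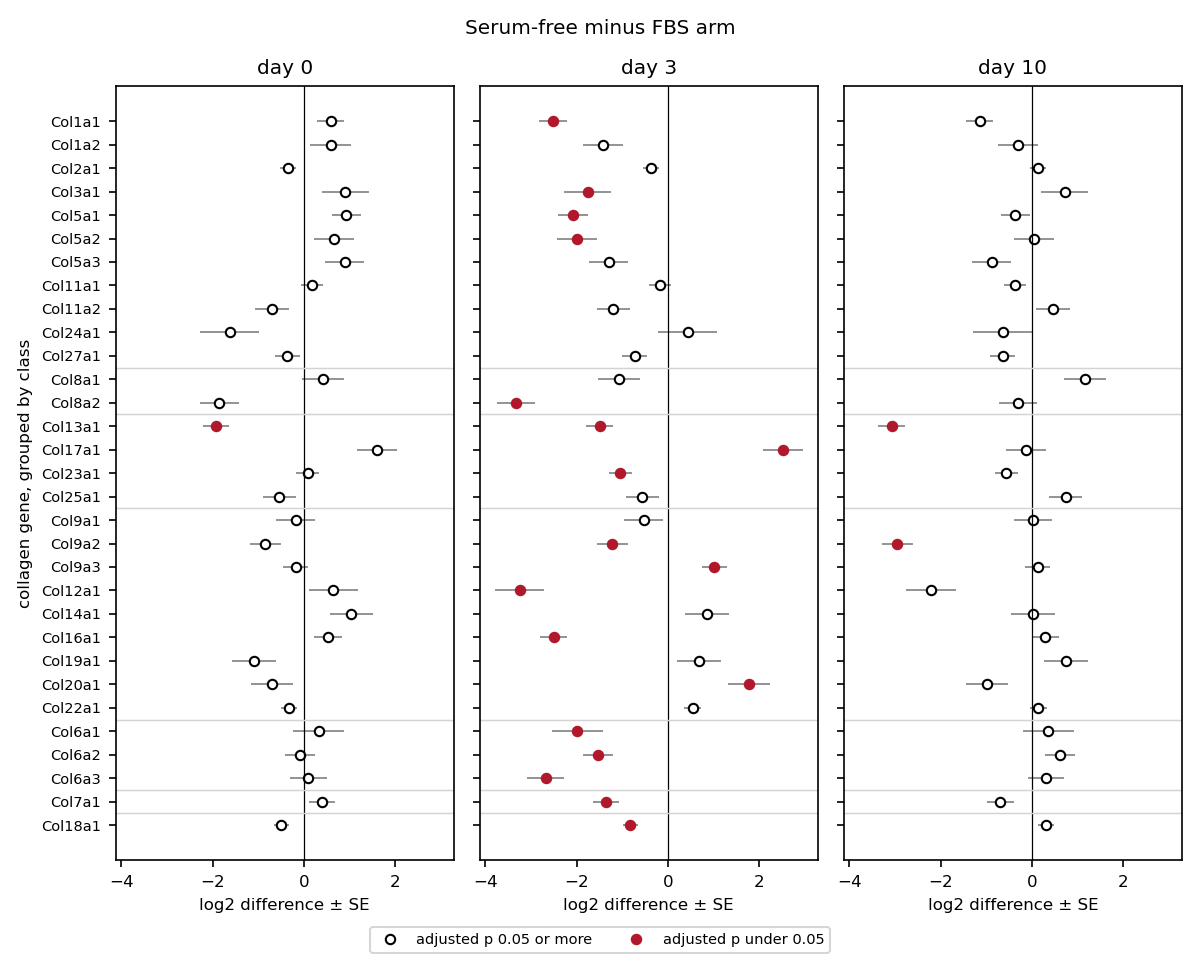
Log2 difference of the serum-free minus the FBS arm with its standard error (SE) for each of the 31 collagens at days 0, 3 and 10, in the order of the classes; filled points had an adjusted p under 0.05. At day 0 there is 1 filled point, at day 3 there are 18 and at day 10 there are 2.

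Type I collagen, the main fibril of skin, bone and tendon, is made of the chains of Col1a1 and Col1a2. Col1a1 read 5.20 and 6.33 in FBS at day 0, 31.4 and 18.0 at day 3, and 22.2 and 13.4 at day 10. In the serum-free arm it read 9.77 and 7.55, then 4.97 and 3.46, then 11.2 and 5.40. At day 0 both serum-free arrays thus lay above both FBS arrays, by a log2 difference of 0.58 that did not pass (limma adjusted p = 0.289). At day 3 both FBS arrays stood at their highest and both serum-free arrays at their lowest. The day 3 difference was -2.52 on the log2 scale (SE 0.30, limma adjusted p = 0.00327, 5.73-fold), and within slide 2 it was -3.18. Its other 2 probes gave -2.28 (adjusted p = 0.0154 with every probe tested separately) and -1.68 (adjusted p = 0.0677). For Col1a2, with 18.2 and 9.93 in FBS and 6.57 and 3.86 in serum-free medium at day 3, the difference was -1.42 (SE 0.44) and did not pass (adjusted p = 0.0554).

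Type III collagen, a fibril of soft tissues, has the single chain of Col3a1. It read 8.37 and 3.86 in FBS at day 3 against 1.97 and 1.44 in serum-free medium, and was lower there by a log2 difference of -1.75 (SE 0.52, limma adjusted p = 0.0469). At day 0 it read 1.08 and 2.94 in FBS and 3.95 and 2.82 without serum, and at day 10 it read 2.74 and 2.10 against 4.47 and 3.47. Its call at day 3 was lost under quantile normalization, in the authors' table and with the slide as a block (adjusted p = 0.0591).

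Type V collagen starts and limits fibrils, and its chains Col5a1 and Col5a2 went the same way. Col5a1 read 1.48 and 2.04 in FBS at day 0, 6.41 and 3.24 at day 3, and 3.96 and 2.44 at day 10. The serum-free arrays read 3.48 and 3.15, then 1.31 and 0.887, then 2.97 and 1.96. Its lines crossed between days 0 and 3, and the day 3 difference was -2.08 (SE 0.32, limma adjusted p = 0.00693). A second Col5a1 probe, above background on all 12 arrays, gave -0.999 (adjusted p = 0.0457 with every probe tested separately). Col5a2 read 0.290 and 0.494 in FBS at day 0, 1.30 and 0.550 at day 3, and 0.603 and 0.363 at day 10. It read 0.643 and 0.558 without serum at day 0, 0.273 and 0.168 at day 3, and 0.685 and 0.341 at day 10, with a day 3 difference of -1.98 (SE 0.44, adjusted p = 0.0199, and 0.0705 with the slide as a block). Col5a3, the third chain of the type, had a difference of -1.30 that did not pass (adjusted p = 0.0669).

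The other 5 fibrillar genes are best known from cartilage (Col2a1, Col11a1, Col11a2, and Col27a1) or from developing bone (Col24a1), and none passed at day 3. Their log2 differences ran from -1.19 for Col11a2 to 0.43 for Col24a1. Over all 12 arrays Col11a1 moved only from 0.214 to 0.385 and Col2a1 from 0.348 to 0.817. A less bright probe of Col2a1 gave -1.39 (adjusted p = 0.0127 with every probe tested separately), so the probes of that gene differ.

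Network collagens were represented by type VIII, a component of the corneal and vascular matrix. Col8a2 read 0.428 and 0.223 in FBS at day 0, 0.158 and 0.124 at day 3, and 0.139 and 0.0261 at day 10. In B27N2 medium it read 0.127 and 0.0575, then 0.0223 and 0.00872, then 0.0657 and 0.0360, and the day 3 value of Dazl-GFP was not well above background. In both arms and lines the day 3 value was below that of day 0, and the arms differed at day 3 by -3.33 (SE 0.42, limma adjusted p = 0.00401). Col8a1, at 2.20 and 1.04 in FBS and 0.912 and 0.569 without serum at day 3, had a difference of -1.07 that did not pass (adjusted p = 0.128). Col10a1, the collagen of growth plate cartilage, read 0.0033 to 0.0122 and was above background on no array.

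The transmembrane collagens did not share a pattern. Col13a1, found at cell contacts and at the neuromuscular junction, read 1.87 and 0.747 in FBS at day 0, 0.458 and 0.336 at day 3, and 0.804 and 0.394 at day 10. The serum-free values were 0.342 and 0.284, 0.164 and 0.118, and 0.1 and 0.0445, below FBS at each day with no overlap. The log2 differences were -1.92 at day 0 (SE 0.29, limma adjusted p = 0.0302), -1.50 at day 3 (SE 0.29, adjusted p = 0.0132) and -3.07 at day 10 (SE 0.29, adjusted p = 0.00586). None passed with the slide as a block (adjusted p = 0.391, 0.142 and 0.314). The second Col13a1 probe, above background on 6 arrays, gave -2.17, -1.57 and -1.26 (limma adjusted p = 0.184, 0.191 and 0.385 with every probe tested separately).

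Col17a1, a collagen of the hemidesmosomes of skin, was the one transmembrane gene higher without serum at day 3. It read 0.0960 and 0.108 in FBS at day 0, 0.0703 and 0.0770 at day 3, and 0.0964 and 0.0599 at day 10. In serum-free medium it read 0.286 and 0.333, then 0.445 and 0.395, then 0.121 and 0.0395. The arms stood apart at days 0 and 3 and overlapped at day 10. The day 3 difference was 2.51 (SE 0.43, limma adjusted p = 0.00939), with 2.49 within slide 2 and an adjusted p of 0.0559 with the slide as a block, and the day 0 difference of 1.60 did not pass (adjusted p = 0.0978).

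Col23a1 read 0.0239 and 0.0421 in FBS at day 0, 0.0648 and 0.0733 at day 3, and 0.0538 and 0.0621 at day 10. Without serum it stayed between 0.0315 and 0.0394 on all 6 arrays, and the day 3 difference was -1.05 (SE 0.25, limma adjusted p = 0.026). A second Col23a1 probe, above background on 6 arrays, gave -0.13, and the slide as a block gave an adjusted p of 0.0669. Col25a1, a collagen known from neurons, had a difference of -0.57 that did not pass (adjusted p = 0.27).

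**Figure D3:**
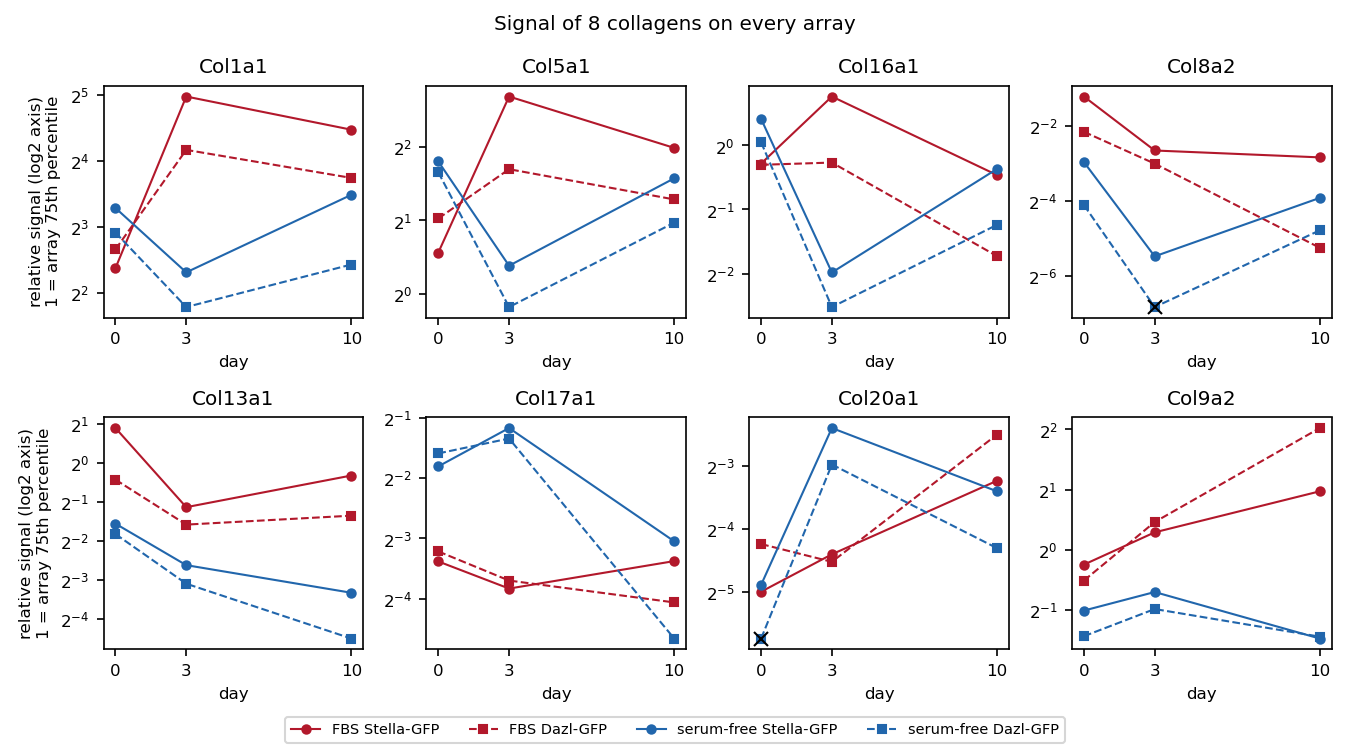
Relative signal (log2 axis, 1 is the 75th percentile of the array) of 8 collagens by day; red lines are FBS, blue lines serum-free, circles Stella-GFP, squares Dazl-GFP, and crosses mark values not well above background. Each point is 1 array; in the upper row Col1a1 parts into 31.4 and 18.0 against 4.97 and 3.46 at day 3, and in the lower row Col13a1 lies lower without serum at every day.

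Promoter windows from RefSeq (GRCm38.p6) were read for 27 of the 34 genes, as 30 windows of 300 bases from 250 bases before the start site to 50 after it. Col1a1, Col2a1, Col5a2, Col9a3, Col12a1, Col14a1 and Col22a1 had no match. The 5 windows below belong to genes whose arms differed at day 3, with Col17a1 the one that was higher. Capitals mark 3 motifs searched on either strand: the TATA box core TATAAA, the CAAT box core CCAAT, and the GC box core GGGCGG; none of these matches overlaps another here. They lie at chr1:45311288-45311587 (plus strand, Col3a1), chr2:27886175-27886474 (plus strand, Col5a1), chr4:130047590-130047889 (plus strand, Col16a1), chr10:61979059-61979358 (minus strand, Col13a1) and chr19:47691993-47692292 (minus strand, Col17a1), and are given 5′ to 3′ along the gene.
Col3a1: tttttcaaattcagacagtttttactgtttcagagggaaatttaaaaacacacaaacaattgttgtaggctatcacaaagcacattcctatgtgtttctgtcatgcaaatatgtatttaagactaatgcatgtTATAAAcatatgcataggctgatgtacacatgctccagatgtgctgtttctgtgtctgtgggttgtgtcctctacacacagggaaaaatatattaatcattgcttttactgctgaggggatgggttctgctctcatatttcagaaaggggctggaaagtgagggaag
Col5a1: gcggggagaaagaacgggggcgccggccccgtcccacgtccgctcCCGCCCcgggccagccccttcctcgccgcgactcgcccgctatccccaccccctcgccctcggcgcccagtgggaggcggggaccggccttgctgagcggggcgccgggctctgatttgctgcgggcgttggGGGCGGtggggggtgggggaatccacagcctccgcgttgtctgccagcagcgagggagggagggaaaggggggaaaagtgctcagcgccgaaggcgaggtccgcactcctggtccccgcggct
Col16a1: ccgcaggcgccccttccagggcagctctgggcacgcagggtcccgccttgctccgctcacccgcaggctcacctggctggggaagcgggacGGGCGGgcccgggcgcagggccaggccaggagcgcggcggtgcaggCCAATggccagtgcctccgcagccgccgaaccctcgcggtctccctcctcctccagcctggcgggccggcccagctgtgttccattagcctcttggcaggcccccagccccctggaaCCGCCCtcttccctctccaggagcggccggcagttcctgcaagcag
Col13a1: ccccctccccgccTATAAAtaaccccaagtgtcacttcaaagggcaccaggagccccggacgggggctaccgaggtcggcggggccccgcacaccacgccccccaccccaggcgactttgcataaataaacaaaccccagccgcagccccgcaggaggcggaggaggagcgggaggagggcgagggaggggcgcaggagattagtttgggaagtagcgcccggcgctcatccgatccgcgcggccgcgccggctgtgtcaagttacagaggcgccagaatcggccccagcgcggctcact
Col17a1: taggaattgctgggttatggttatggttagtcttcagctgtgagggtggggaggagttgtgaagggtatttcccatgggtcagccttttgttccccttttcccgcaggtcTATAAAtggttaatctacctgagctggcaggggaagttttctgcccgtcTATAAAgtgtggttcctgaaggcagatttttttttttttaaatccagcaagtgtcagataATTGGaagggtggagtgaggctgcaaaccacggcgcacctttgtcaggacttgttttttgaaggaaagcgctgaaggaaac

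The TATAAA motif was in 16.7% of the 30 collagen windows and in 13.6% of all 32851 windows. CCAAT was in 30% of the collagen windows and 37.4% of all windows, and GGGCGG in 53.3% against 35.7%. Of the 14 windows of collagens lower at day 3, 9 held GGGCGG, among them Col5a1 and Col16a1, whereas neither window of the higher ones (Col17a1 and Col20a1) did. The Col3a1 window held TATAAA starting 117 bases before the start site, Col13a1 237 bases before it, and Col17a1 140 and 91 bases before it. These counts describe letters in the windows, with no test.

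FACIT collagens went both ways at day 3. Col16a1, which binds to fibrils in skin and cartilage, read 0.822 and 0.811 in FBS at day 0, 1.70 and 0.831 at day 3, and 0.726 and 0.302 at day 10. In the serum-free arm the values were 1.33 and 1.03, then 0.253 and 0.174, then 0.776 and 0.424. Both serum-free arrays fell to their lowest at day 3, where the difference from FBS was -2.5 (SE 0.30, limma adjusted p = 0.00327) and, within slide 2, -3.29. Col12a1, a partner of type I fibrils, read 0.114 and 0.0537 in FBS at day 3, and 0.00937 and 0.00727 without serum, both not well above background. Col12a1 was lower there by a log2 difference of -3.25 (SE 0.54, limma adjusted p = 0.00835), which is 9.49-fold as a point estimate. At day 0 it had read 0.0170 and 0.0357 in FBS and 0.0448 and 0.0330 without serum, and at day 10 it read 0.0524 and 0.113 in FBS and 0.0134 and 0.0204 without serum, the last pair not well above background.

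Type IX collagen, a companion of type II fibrils in cartilage, had chains with opposite differences. Col9a2 read 0.845 and 0.703 in FBS at day 0, 1.22 and 1.38 at day 3, and 1.96 and 4.07 at day 10. Without serum it read 0.498 and 0.371, 0.616 and 0.507, and 0.361 and 0.369. The FBS arrays were above the serum-free arrays at each day, with log2 differences of -1.22 at day 3 (SE 0.34, limma adjusted p = 0.0397, and 0.151 with the slide as a block) and -2.95 at day 10 (SE 0.34, adjusted p = 0.00755, and 0.31 with the slide as a block). Col9a3 read 0.0674 and 0.0548 in FBS and 0.108 and 0.140 without serum at day 3, a difference of 1.02 (SE 0.27, adjusted p = 0.0362, and 0.109 with the slide as a block). At day 0 it read 0.0950 and 0.114 in FBS and 0.0898 and 0.0947 without serum, and at day 10 0.0558 and 0.0528 against 0.0768 and 0.0453. Col9a1 did not pass (-0.54, adjusted p = 0.368).

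Col20a1, another FACIT gene, read 0.0314 and 0.0530 in FBS at day 0, 0.0474 and 0.0436 at day 3, and 0.106 and 0.177 at day 10. Without serum it read 0.0338 and 0.0188 at day 0, the second not well above background, 0.190 and 0.127 at day 3, and 0.0946 and 0.0507 at day 10. It was high at day 3 in the serum-free arm and at day 10 in the FBS arm, and differed between the arms at day 3 by 1.77 (SE 0.45, limma adjusted p = 0.0313, and 0.157 with the slide as a block). The FACIT genes that did not pass were Col9a1, Col14a1, Col19a1 and Col22a1, with differences from -0.54 to 0.85, and Col14a1 and Col19a1 were not well above background on either FBS array of day 3.

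The 3 chains of type VI collagen, whose beaded filaments surround cells, were all lower without serum at day 3. Col6a1 read 0.742 and 0.343 in FBS and 0.155 and 0.105 without serum (log2 difference -1.98, SE 0.56, limma adjusted p = 0.0415). Col6a2 read 0.423 and 0.246 against 0.141 and 0.0888 (-1.53, SE 0.33, adjusted p = 0.0178). Col6a3 read 2.00 and 1.08 against 0.247 and 0.213 (-2.68, SE 0.40, adjusted p = 0.00631, and -3.23 within slide 2). In each chain both FBS arrays lay above both serum-free arrays. That is not particular to type VI, since the arms did not overlap at day 3 for 27 of the 31 collagens. The share over all genes was not counted. At day 0 the chains read 0.170 and 0.515, 0.153 and 0.235, and 0.697 and 1.21 in FBS, in the order Col6a1, Col6a2 and Col6a3. Without serum at day 0 they read 0.400 and 0.340, 0.218 and 0.147, and 1.21 and 0.801, and the groups overlapped for each chain. At day 10 they read 0.253 and 0.180, 0.160 and 0.129, and 0.660 and 0.327 in FBS against 0.331 and 0.224, 0.231 and 0.211, and 0.615 and 0.535, and none passed.

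The anchoring fibril gene Col7a1 read 1.52 and 1.83 in FBS at day 0, 1.84 and 1.69 at day 3, and 0.919 and 0.798 at day 10. Without serum it read 2.28 and 2.11, then 0.716 and 0.666, then 0.763 and 0.369. The serum-free arrays were already low at day 3, when the difference was -1.36 (SE 0.29, limma adjusted p = 0.0175, and 0.189 with the slide as a block). Col18a1, the basement membrane collagen from which the fragment endostatin is cut, read 50.4 and 43.5 in FBS at day 0, 43.0 and 37.4 at day 3, and 21.7 and 16.3 at day 10. Without serum it read 38.2 and 29.0, 22.7 and 22.4, and 26.9 and 20.1, and its day 3 difference of -0.83 (SE 0.16, adjusted p = 0.0143) was the smallest among the called genes. That call was lost under quantile normalization, in the authors' table and with the slide as a block (adjusted p = 0.125).

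Before and after day 3 the arms differed in few collagens. At day 0, 1 of 31 genes was called, Col13a1, against 1.89% of all genes (0.866% lower). The Col13a1 call was kept in 1 of the 12 omissions of an array, that of FBS Dazl-GFP of day 0, where the count was 2. The median difference of the fibrillar genes was then 0.58, with that of all genes at -0.02. At day 10, 2 of 31 were called, Col13a1 and Col9a2, both lower, against 5.63% of all genes (2.01% higher and 3.62% lower), and there were none without the FBS Dazl-GFP or the serum-free Dazl-GFP array of day 10. Col1a1 had a day 10 difference of -1.15 (limma adjusted p = 0.0728). Col12a1, not well above background without serum, was 4.63-fold apart without passing (adjusted p = 0.0591). No slide held both arms at day 0 or at day 10, so within a day slide and arm cannot be told apart there.

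Within the FBS arm the days were compared with each other. By day 3 Col1a1 rose by 2.05 on the log2 scale (SE 0.30, limma adjusted p = 0.00885), Col5a1 by 1.39 (SE 0.32, adjusted p = 0.0342) and Col23a1 by 1.12 (SE 0.25, adjusted p = 0.0311). The direction turned for Col23a1 with its second probe (-0.15) and with normexp (-0.41), and the second Col5a1 probe gave 1.04 (adjusted p = 0.0604). Col13a1 fell by 1.59 (SE 0.29, limma adjusted p = 0.0162), and its second probe gave -1.17 (adjusted p = 0.386 with every probe tested separately). The other Col1a1 probes gave 1.53 (adjusted p = 0.076) and 2.39 (adjusted p = 0.0368). The calls were 4 of 31 genes, against 12% of all genes (6.7% higher and 5.28% lower). Both lines gave each sign, which a call already favours, with larger changes in Stella-GFP (Col1a1 2.60 against 1.5, Col5a1 2.12 against 0.67). The Dazl-GFP arrays all lay on slide 1, so their values are within 1 slide. The count was 1 without FBS Stella-GFP of day 0, 0 without FBS Stella-GFP of day 3, 1 without FBS Dazl-GFP of day 3 and 11 without FBS Dazl-GFP of day 0.

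From day 0 to day 10 in FBS, 5 of 31 genes were called, against 12.9% of all genes (7.57% higher and 5.34% lower). Col1a1 rose by 1.59 (SE 0.30, limma adjusted p = 0.0156), Col20a1 by 1.75 (SE 0.45, adjusted p = 0.0454) and Col9a2 by 1.87 (SE 0.34, adjusted p = 0.0134). The Col1a1 call was lost with another of its probes. Col18a1 fell by 1.32 (SE 0.16, adjusted p = 0.00414) and Col8a2 by 2.36 (SE 0.42, adjusted p = 0.0128). Col18a1 was the one call of this comparison that remained when any array was left out, and with Col9a2 it also passed with the slide as a block. The count was 1 without FBS Dazl-GFP of day 10, 3 without FBS Stella-GFP of day 10 and 8 without FBS Dazl-GFP of day 0. From day 3 to day 10 the single call was Col18a1, which fell by 1.09 (SE 0.16, adjusted p = 0.0417), against 1.46% of all genes (0.955% higher and 0.501% lower). The count was 6 without either FBS array of day 0 and 0 without any 1 of the other 10 arrays.

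In the serum-free arm 7 of 31 collagens fell by day 3 and 1 rose, against 13.9% of all genes called (5.91% higher and 7.94% lower). Col16a1 fell by 2.49 (SE 0.30, limma adjusted p = 0.00466), Col8a2 by 2.62 (SE 0.42, adjusted p = 0.0107), Col6a3 by 2.10 (SE 0.40, adjusted p = 0.0186), Col7a1 by 1.67 (SE 0.29, adjusted p = 0.0135), Col5a1 by 1.62 (SE 0.32, adjusted p = 0.021) and Col13a1 by 1.17 (SE 0.29, adjusted p = 0.0379). Col12a1, not well above background at day 3, ended 4.66-fold lower (limma adjusted p = 0.0359), and Col20a1 rose by 2.62 (SE 0.45, adjusted p = 0.0138). The second probes of Col5a1 (-0.33, limma adjusted p = 0.498) and Col13a1 (-0.57, adjusted p = 0.699) did not pass, so each of these calls rests on 1 probe. For each line the arrays of days 0 and 3 shared a slide, and all 8 calls passed with the slide as a block. The count was 2 without serum-free Stella-GFP of day 0, 0 without serum-free Dazl-GFP of day 0 and 1 without either serum-free array of day 3. It was 13 without either FBS array of day 0.

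By day 10 of serum-free culture 3 of 31 collagens lay below day 0, against 5.25% of all genes (2.18% higher and 3.07% lower). Col13a1 fell by 2.22 (SE 0.29, limma adjusted p = 0.0111), Col17a1 by 2.16 (SE 0.43, adjusted p = 0.0361) and Col7a1 by 2.05 (SE 0.29, adjusted p = 0.0132). The Col13a1 call was lost with its second probe. Of the genes that had fallen by day 3, Col16a1, Col8a2, Col6a3, Col5a1 and Col12a1 were not called against day 0 at day 10. From day 3 to day 10 the one call was Col17a1, which fell by 2.60 (SE 0.43, adjusted p = 0.037), against 2.24% of all genes (1.2% higher and 1.04% lower), with -1.88 in Stella-GFP and -3.32 in Dazl-GFP. The day 10 count was 1 without serum-free Stella-GFP of day 0 and 0 without serum-free Dazl-GFP of day 0 or of day 10. From day 3 to day 10 the Col17a1 call was kept in 3 of the 12 omissions, those of either FBS array of day 0, where the count was 5, and of serum-free Stella-GFP of day 10.

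The change from day 0 to day 3 was itself compared between the arms. It differed for 3 of 31 collagens, against 1.62% of all genes (0.459% higher and 1.17% lower): Col1a1 by -3.10 (SE 0.42, limma adjusted p = 0.0311), Col16a1 by -3.03 (SE 0.42, adjusted p = 0.0311) and Col5a1 by -3.01 (SE 0.46, adjusted p = 0.0367). For Col1a1 and Col5a1 FBS showed a called rise, and for Col5a1 and Col16a1 the serum-free arm showed a called fall. The brighter of the other Col1a1 probes gave -2.46 and did not pass with every probe tested separately. The second Col5a1 probe gave a smaller difference of the changes, -1.38 (limma adjusted p = 0.107). The count was 6 without FBS Stella-GFP of day 0, 9 without FBS Dazl-GFP of day 0 and 1 without any 1 of the day 10 arrays. All 3 calls were lost when either day 3 array of an arm or either serum-free array of day 0 was left out, without the line in the model, and with the slide as a block (adjusted p = 0.109, 0.0833 and 0.107). The change from day 0 to day 10 differed for 0 of 31 collagens by limma (12 at an unadjusted p under 0.05), with 0.0656% of all genes called (0.0187% higher and 0.0468% lower), and for 1 in the authors' table.

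Dazl-GFP and Stella-GFP did not differ past the threshold in any collagen. Their arrays partly lay on different slides. In FBS, Stella-GFP of days 3 and 10 was on slide 2 and Dazl-GFP on slide 1. Without serum, Dazl-GFP of days 0 and 3 was on slide 2 and Stella-GFP on slide 3. At those days line and slide cannot be told apart. In FBS the count was 0 of 31 by limma, with 7 at an unadjusted p under 0.05 and 0.628% of all genes called (0.356% higher and 0.272% lower). The largest value was that of the fibrillar Col24a1, 1.77 higher in Dazl-GFP (SE 0.28, adjusted p = 0.0562), which read 0.0805, 0.0317 and 0.0631 in Dazl-GFP at days 0, 3 and 10 and 0.0269, 0.0120 and 0.0125 in Stella-GFP. The last 2 of these were not well above background. In serum-free medium the count was again 0 (6 at an unadjusted p under 0.05, and 0.295% of all genes called, 0.155% higher and 0.14% lower). There 26 of 31 collagens had a negative Dazl-GFP minus Stella-GFP difference, against 12431 of all 21354 genes. The median was -0.43 for the collagens and -0.05 for all genes. The line differences were compared between the arms too, with 0 calls among the collagens (2 at an unadjusted p under 0.05) and 0% of all genes called.

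The 13 collagens called in no comparison were Col1a2, Col2a1, Col5a3, Col8a1, Col9a1, Col11a1, Col11a2, Col14a1, Col19a1, Col22a1, Col24a1, Col25a1 and Col27a1. Over the 12 arrays Col1a2 went from 3.86 to 18.2 and Col8a1 from 0.383 to 2.21. Col14a1 stayed between 0.00799 and 0.0329 and Col19a1 between 0.006 and 0.0239.

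Genes that process collagen were listed with earlier results known, and their day 3 counts stand beside a share of 22.6% of all genes called (13.6% lower and 8.99% higher). Of 11 genes of procollagen cleavage and crosslinking 6 were lower without serum and none was higher (median -1.64). They included Adamts2, which trims the amino end of procollagen (-2.96, SE 0.29, limma adjusted p = 0.00201), and Bmp1, which trims its carboxyl end (-2.24, SE 0.30, adjusted p = 0.00456). The crosslinking enzymes Loxl1 (-2.97, SE 0.39, adjusted p = 0.00443) and Lox (-2.61, SE 0.58, adjusted p = 0.0201) were lower as well. Of 18 genes of collagen modification and folding 4 were lower and 1 was higher (27.8% called, median -0.28), close to the share over all genes. Fkbp10, a prolyl isomerase of procollagen, was lower by -2.36 (SE 0.29, adjusted p = 0.00352), and the lysyl hydroxylase Plod2 was higher by 1.23 (SE 0.31, adjusted p = 0.0288).

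Of 12 proteins that bind fibrils 4 were lower at day 3, against 13.6% of all genes (median -1.49): Dpt (-3.92), Lum (-2.78), Thbs2 (-2.77) and Postn (-2.31). Of 7 collagen receptors 3 were lower (median -1.26): the discoidin receptors Ddr2 (-2.29) and Ddr1 (-1.43), and Mrc2, which takes up collagen fragments (-2.03). At day 0, when 1.89% of all genes were called, no gene of these 4 lists was. At day 10, with 5.63% of all genes called, P4ha2 (-1.06) and P3h4 (-1.16), both of the modification list, were lower.

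Markers of fibroblasts, with no collagen among them, moved at day 3 as well. Of 15 markers 11 were lower without serum and 1, Fn1, was higher, against 13.6% of all genes lower and 8.99% higher (median -1.97); Thy1 had a log2 difference of -4.25, Twist2 of -4.23 and S100a4 of -4.86. Their summed relative signal at day 3 was 120 and 83.7 in FBS and 53.0 and 46.4 without serum. At day 0 it was 90.5 and 70.0 against 68.5 and 64.7, and at day 10 90.1 and 65.9 against 73.5 and 58.0. Calls between the arms were not confined to day 3. At day 0, 2 of the 15 were lower (median -0.04), against 0.866% of all genes lower. At day 10, 3 were lower (median -0.74), against 3.62% of all genes lower. From day 0 to day 3, 9 of the 15 were lower and 1 higher in the serum-free arm (13.9% of all genes called), and 1 was higher in FBS (12% of all genes called). Their part in the collagen differences was not tested.

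**Figure D4:**
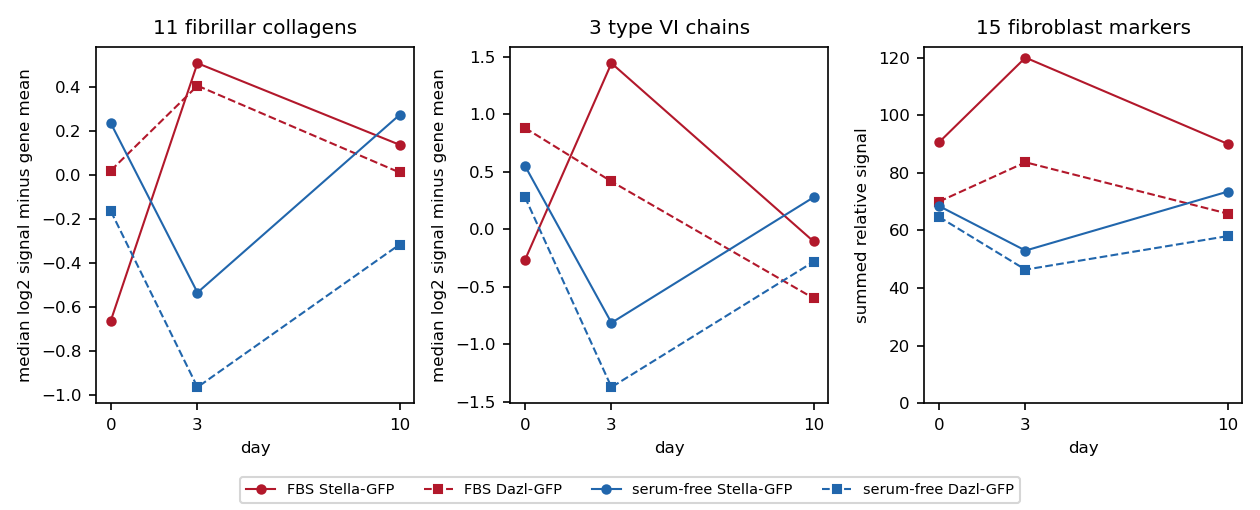
Median of the centred log2 signal of the 11 fibrillar collagens (left) and of the 3 type VI chains (middle), and the summed relative signal of 15 fibroblast markers (right), by day; each point is 1 array, red is FBS, blue serum-free, circles Stella-GFP and squares Dazl-GFP. At day 3 both FBS arrays lie above both serum-free arrays in each panel, with 120 and 83.7 against 53.0 and 46.4 for the markers.

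Counts of other markers at day 3 are likewise read against 13.6% of all genes lower and 8.99% higher. Of 10 macrophage markers 6 were lower without serum and 2 higher, with a summed relative signal of 8.66 and 5.26 in FBS and 2.11 and 3.18 without serum. Of 12 primitive endoderm markers 8 were higher and none lower, with sums of 4.78 and 4.35 in FBS against 12.3 and 26.7. That list holds the type IV chains Col4a1 (log2 difference 3.02, SE 0.50, limma adjusted p = 0.00849) and Col4a2 (2.56, SE 0.54, adjusted p = 0.0171), so these type IV chains were higher at the day when most differences of fibrillar and type VI chains were negative. Of 10 ES cell markers 2 were lower, Sall4 (-0.81) and Tdgf1 (-0.70), a share of 20% called against 22.6% of all genes. The part of these cell types in the collagen differences was not tested.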

How the data were processed

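Total RNA of 12 ES cell cultures was labelled with Cy3, per the labels. The authors deposited scanner output of Agilent Feature Extraction (version 9.1.3.1, per the file headers) with 45018 spots per array, 43379 of them not controls. The deposited intensity of each spot is background-subtracted and detrended, per the file headers; 0 or 1 marks of spots well above background were deposited beside it. The authors also deposited a table whose values, set against the arrays, are a ratio of background-subtracted intensity to the array median; a floor of 0.1 was set here. The genome build used for the array is not given in the sources used here.

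The log2 intensity minus each array's 75th percentile was averaged over spots of a probe. The probe of highest mean stood for a gene; the members had 65 probes, and 13 kept members had more than 1 above background. Members were named by the file's gene name, other genes also through the RefSeq table (22892 of 41174 probes) or the authors' table (7514). Genes above background on fewer than 2 arrays were left out.

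In R 4.3.3, limma 3.58.1 fitted 6 groups plus the cell line to all 12 arrays (5 residual degrees of freedom, prior 2.53), and a model with a line difference in each arm (4 residual degrees of freedom) gave the line results. P-values were adjusted by Benjamini and Hochberg over 21354 genes. The number of arrays limits the precision. The scripts were tested on simulated data. Replicate numbers are the lines, the same in each group, so arrays of a line are pairs. Deviations from the group means of such arrays correlated, in 15 comparisons of groups, at -0.05 to 0.571 (median 0.156, above 0.1 in 13). For Col12a1, above background in 1 group only of some comparisons, the fold is a point estimate and no lower bound. A floor at the lowest signal well above background on each array left it unchanged. Figures were drawn with matplotlib 3.10.9.

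Alternatives were quantile normalization, normexp (offset 50), the authors' table, no filter, genes above background on all 12 arrays, every probe separately, no line in the model, the slide as a block, and leaving out each array. Added after seeing the data was normexp with local backgrounds over 10 times the array median set to that median. The members, classes and lists were chosen with earlier results of these data known; members called in at least 1 of 14 comparisons are given on every array.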

Additional observations from a re-analysis of the deposited data

Results flagged for a closer look

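The change from day 0 to day 3 differed between the serum-free and the FBS arm by a test of the difference itself (limma, adjusted over all genes) in 3 collagens. The log2 values were -3.10 for Col1a1, -3.03 for Col16a1 and -3.01 for Col5a1. With another probe neither Col1a1 nor Col5a1 passed. A signal outside the genes compared was seen for Col28a1, a collagen of the peripheral nervous system. It lay well above background on 1 array, serum-free Dazl-GFP at day 0, with a relative signal of 0.0291, while the other 11 arrays read 0.0035 to 0.00746. Single arrays were not tested for lying apart from their group of 2.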

How the results depend on the processing

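Calls depended on single arrays and on the slide. Of 46 calls of single genes, 43 were kept under quantile normalization, 43 in the authors' table, 32 without the replicate block (no line in the model), 18 with the slide as a block and 4 with normexp (40 lost, 2 reversed). Of the 23 calls for which a gene had another probe, the brightest of these kept 6, lost 16 and reversed 1. Without the replicate block the counts were 0 at day 0, 2 for FBS day 3 and 3 for FBS day 10 against day 0, and 0 for both day 10 against day 3 comparisons and for the day 3 response; it changed no other count by over 1.5 times. With the slide as a block they were 0 at day 0, 7 at day 3, 0 at day 10, 1 and 2 for FBS days 3 and 10 against day 0, and 0 for serum-free day 10 against day 0, both day 10 against day 3 comparisons and the day 3 response. Normexp gave 2 at day 3, 1 and 1 for FBS days 3 and 10 against day 0, and 0 in every other comparison. With local backgrounds repaired, an alternative added after seeing the data, it gave 3 at day 0, 17 for FBS day 3 against day 0, 8 and 3 for day 10 against day 3 in FBS and serum-free, 13 and 2 for the day 3 and day 10 responses, and 1 for the line in FBS; the day 3 split was then 1 higher and 21 lower. FBS day 10 against day 3 gave 0 under quantile normalization, in the authors' table and with no filter, and 3 with genes above background on all 12 arrays. Serum-free day 10 against day 3 gave 0 with no filter and 2 with genes above background on all 12 arrays, the day 3 response gave 6 with those genes, and the day 10 response gave 1 in the authors' table. Leaving out 1 array gave 0 to 2 at day 0, 4 to 21 at day 3, 0 to 3 at day 10, 0 to 11, 1 to 8 and 0 to 6 for FBS days 3 and 10 against day 0 and day 10 against day 3, 0 to 13, 0 to 4 and 0 to 5 for the same in the serum-free arm, and 0 to 9 for the day 3 response; a lone array was then assumed to vary like the other groups. Directions reversed for Col23a1 in FBS day 3 against day 0 (-0.41 with normexp, -0.15 with its other probe) and for Col20a1 in FBS day 10 against day 0 (-0.35 with normexp). Quantile normalization moved the day 3 median of all genes from -0.21 to -0.08. Causes were not tested.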

Other observations

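A pair of collagen genes stood on the array under older names and so fell outside the naming rule; they were looked at after their values were seen. Emid2, which RefSeq calls Col26a1, lay well above background on all 12 arrays. It read 0.256 and 0.185 in FBS at day 0, 0.144 and 0.144 at day 3, and 0.684 and 1.36 at day 10, for Stella-GFP and Dazl-GFP. Without serum it read 0.168 and 0.115, 0.0886 and 0.125, and 0.116 and 0.0578. Both FBS arrays of day 10 thus lay above the other 10 arrays. E330026B02Rik, which RefSeq calls Col6a6, a further type VI chain, was above background on none of the 12 arrays, with 0.00436 to 0.0109.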
